A study of Mus musculus with 4 samples.

Results

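Motor proteins turn ATP into movement along the cytoskeleton. Most kinesins carry cargo toward the growing ends of microtubules, cytoplasmic dynein carries it back toward the cell centre, and myosins pull on or walk along actin filaments. In the brain these motors move vesicles, mitochondria and RNA along axons and dendrites, shape dendritic spines, drive the movement and phagocytosis of microglia, build cilia and, in dividing cells, assemble the spindle.

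The genes described here were all 84 protein-coding genes of GENCODE mouse release 21 whose symbols name a kinesin (Kif), a cytoplasmic dynein (Dync1 or Dync2) or a myosin heavy chain (Myo or Myh), out of 35498 genes with reads summed from the listed transcripts. They comprised 38 kinesin, 7 dynein and 39 myosin genes, chosen by symbol and not by any measured value. RNA was recovered from the hippocampus of mice carrying P2RY12CreER and Rpl22HA, in which Cre under a microglial promoter switches on a tagged ribosomal protein that can then be pulled down with its RNA. The 2 sleep-deprived files came from C57BL/6J mice aged 4 months that were fear conditioned, a training that pairs a place or cue with a shock, and then kept awake for 6 h. The 2 control files came from mice of the same strain, age and genotype that had the same training and were left to sleep for 6 h. Every mouse therefore carried the tag and was trained, and each file pooled 2 mice.

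The files held 14473030 and 14431647 estimated reads in sleep-deprived and 14877011 and 14833320 in control samples. Within each group the 2 files were closer to each other than independent sampling of reads would make them. They were therefore counted as 1 sample, and every comparison sets 1 library against 1 library (n = 1 per group) and carries no p-value. Reads of a library are the mean of its 2 files, CPM are reads scaled to a common library size with TMM factors (edgeR's correction for library composition), and ratios are sleep-deprived over control with 95% counting intervals. PCR copies are not separate molecules, so an interval covers counting error only and leaves out the spread between mice. A gene was called higher or lower where it differed by 2-fold or more and its interval excluded 1. The 20 microglial marker genes summed to 823 CPM in the sleep-deprived and 247 CPM in the control library, with 16 called higher and none called lower, whereas 12 neuronal markers summed to 3665 and 4215 CPM with no gene called. RNA of neurons, and of astrocytes and oligodendrocytes (1175 against 2003 CPM and 2204 against 3520 CPM), was thus abundant in both libraries of a pulldown aimed at microglia. In such bulk samples fewer cells of a type and less RNA per cell cannot be told apart.

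Of the 84 motor genes, 69 had enough reads to be measured, namely 33 kinesins, all 7 dyneins and 29 myosins. The other 15 genes had at most 7 reads in any file. Kif12, Kif2b, Myh8 and Myo3a had no read in any file, which does not show that their RNA was absent. Kif18b, Kif28, Kif2c, Myh1, Myh13, Myh2, Myh4, Myo15b, Myo1h, Myo3b and Myo7b had a few. Several of these are motors of skeletal muscle (Myh1, Myh2, Myh4, Myh8 and Myh13) or of sensory and epithelial cells (Myo3a, Myo3b and Myo7b).

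Levels between genes were compared in TPM, an abundance corrected for transcript length. Myh10, the heavy chain of non-muscle myosin 2B that contracts actin in spines and cell bodies, stood first, with 1161 and 1165 TPM in the sleep-deprived files against 1569.9 and 1571.5 TPM in the control files. A large part of this value lay on a short non-coding transcript. On protein-coding transcripts alone Myh10 still stood first of the 69 genes, at 379 TPM in the sleep-deprived and 296 TPM in the control library. By this coding level it was followed by Myo5a, Dync1i2, Kif5a, Myh9, Kif1a and Dync1h1, each between 92.7 and 261 TPM in both libraries. These are the vesicle carrier of spines, a dynein intermediate chain, the neuronal kinesin-1, non-muscle myosin 2A, the kinesin of synaptic vesicle precursors and the dynein heavy chain. At the other end, Kif4, Kif11, Kif14, Kif26a, Myh3, Myh15, Myo18b, Myo1f and Myo1g were below 1 TPM over all transcripts in both libraries, and all 4 genes called higher below are among them. On protein-coding transcripts alone Kif6, Kif20a, Kif27, Myh7 and Myo5c were below 1 TPM in both libraries too.

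**Figure D1:**
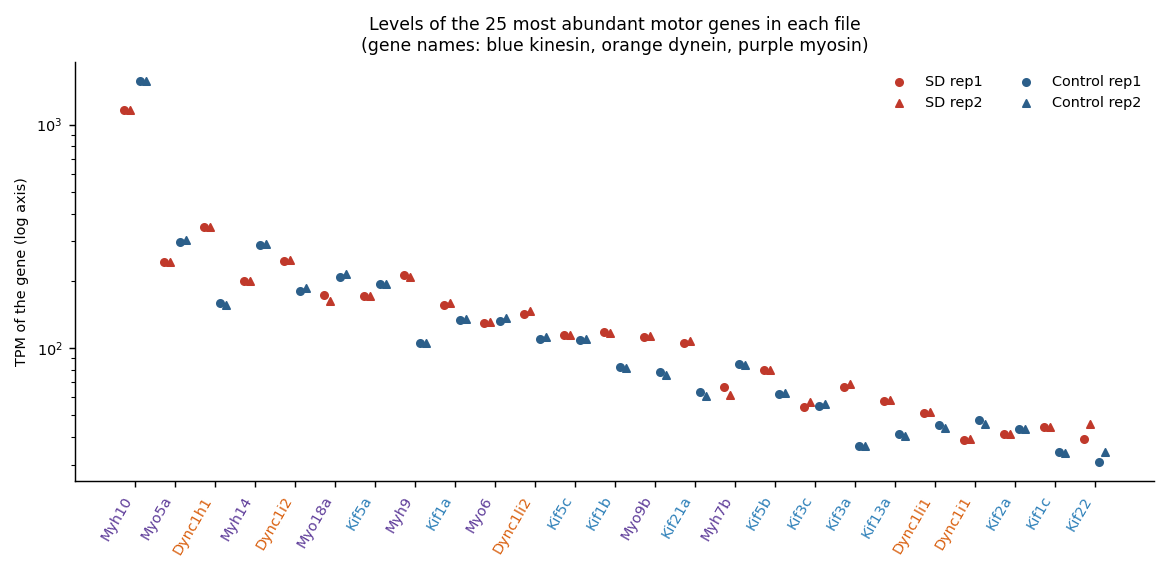
TPM (log axis) of the 25 motor genes with the highest mean TPM, in each of the 2 sleep-deprived (red, left) and 2 control (blue, right) files. The 2 files of a group nearly coincide for each gene, and Myh10 stands above the rest at 1161 to 1571.5 TPM.

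Across all measured motor genes the libraries were close. The members' summed level was 11605 CPM in the sleep-deprived and 12174 CPM in the control library (ratio 0.95, 0.947 to 0.96), the median log2 ratio was 0.05, and 39 of 69 genes lay above a ratio of 1. Over all 14916 measured genes of the series the median log2 ratio was -0.01. Only 4 motor genes were called higher (Kif14, Kif11, Myh3 and Kif4) and 2 lower (Myo5b and Myh11). The same rule called 4.24% of all measured genes higher and 5.65% lower, 9.90% in either direction, so that 6 of 69 is near the background. With protein-coding transcripts alone 9 genes were called higher and 3 lower, where 6.67% and 5.99% of all genes were. With read numbers divided by transcript length in each library 6 were called higher and 4 lower (5.42% and 6.74% of all genes). A 1.5-fold threshold called 15 higher and 5 lower (12.5% and 13.6% of all genes), and a 3-fold threshold 3 higher and none lower (1.65% and 2.43%). Among the genes with a mean of at least 50 reads none was called higher and 2 were called lower (2.54% and 3.29%), so that each gene called higher rests on few reads. Within 1.5-fold in either direction lay 44 of the 69 genes and within 2-fold 61.

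The 3 motor classes did not share a direction when their reads were summed. Kinesins summed to 3703 CPM in the sleep-deprived and 3688 CPM in the control library (ratio 1.004, 0.992 to 1.02), with a median log2 ratio of 0.00. Dyneins summed to 2032.5 CPM in the sleep-deprived and 1515 CPM in the control library (ratio 1.34, 1.32 to 1.36), with a median log2 ratio of 0.16. Myosins summed to 5869.6 CPM in the sleep-deprived and 6970.5 CPM in the control library (ratio 0.84, 0.834 to 0.85), although their median log2 ratio was 0.16. A class sum is weighted by its most abundant genes. Without Dync1h1 the dynein ratio was 1.13, without Myo5a the myosin ratio was 0.93, and without Kif5a the kinesin ratio was 1.07. With 1 library per group no test between the classes was possible.

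**Figure D2:**
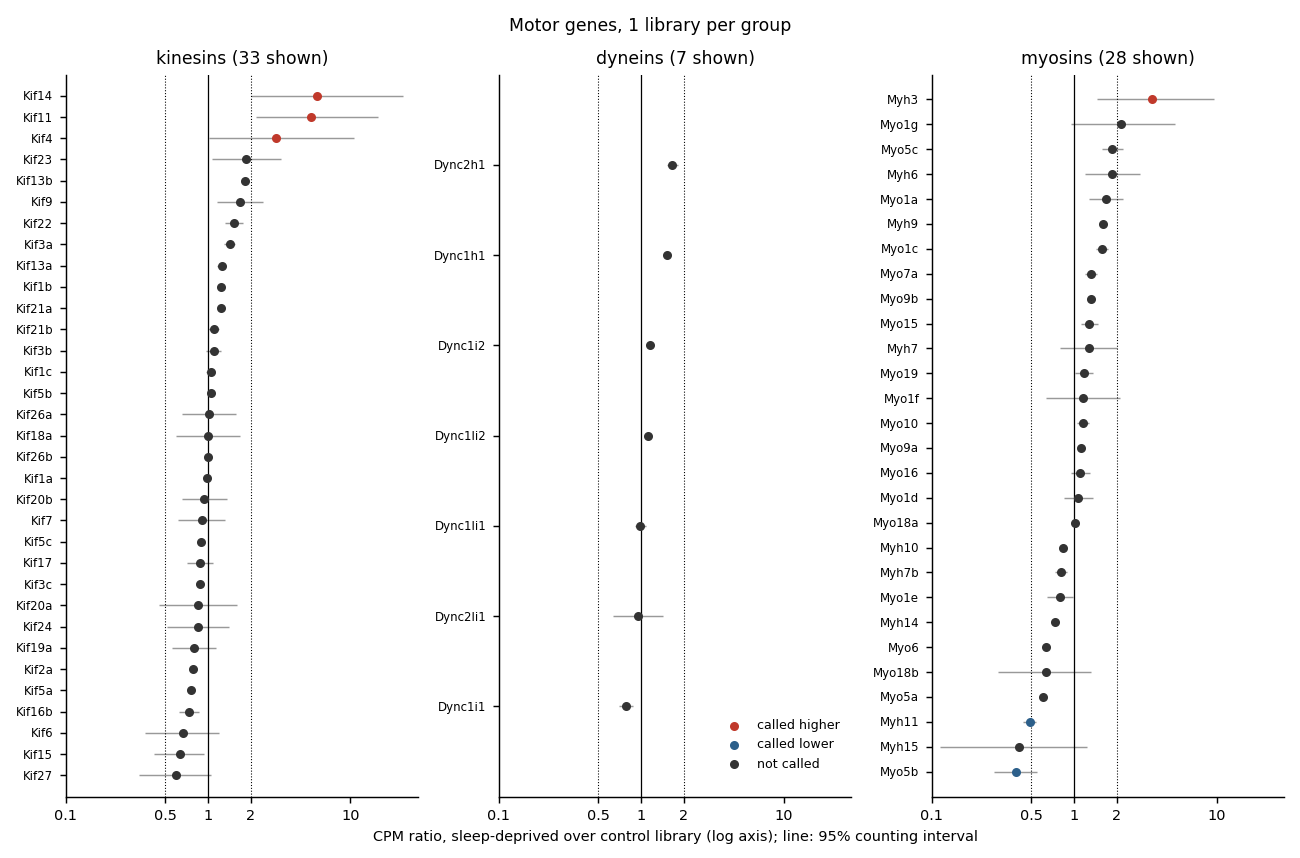
CPM ratio, sleep-deprived over control library (log axis), of the 33 kinesin, 7 dynein and 28 of the 29 myosin genes measured, with its 95% counting interval. The called genes are Kif14, Kif11, Kif4 and Myh3 at 2.98 to 5.85 and Myo5b and Myh11 at 0.39 and 0.486, and most others lie between 0.5 and 2.

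Among the kinesins that carry cargo, the kinesin-1 heavy chains (Kif5a, Kif5b and Kif5c), which haul mitochondria and vesicles down axons, had no member called and a median log2 ratio of -0.17. Kif5a had 546 and 546.5 CPM in the sleep-deprived files, against 727 and 726 CPM in the control files (ratio 0.752, 0.73 to 0.774). Kif5c had 397 and 397 CPM in the sleep-deprived files, against 448 and 448 CPM in the control files (ratio 0.886, 0.855 to 0.918). Kif5b, the form found in most cell types, had a ratio of 1.04 whose interval included 1. The neuronal forms Kif5a and Kif5c thus lay below 1 and the widespread form at about 1, beside neuronal markers at a summed ratio of 0.869. What part cell composition had in this was not tested.

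The kinesin-3 motors, which carry synaptic vesicle precursors and endosomes, had a median log2 ratio of 0.30 over 7 genes, with Kif14 the member called. Kif1a had 644.55 and 646 CPM in the sleep-deprived files, against 654 and 654 CPM in the control files, a ratio of 0.987 whose interval included 1. Kif1b, a carrier of vesicles and mitochondria, had 602 and 603 CPM in the sleep-deprived files, against 488 and 488 CPM in the control files (ratio 1.24, 1.20 to 1.27). The endosomal motors Kif13b and Kif13a had ratios of 1.81 and 1.25, and Kif13b was the cargo kinesin farthest above 1. Kif1c had a ratio of 1.04, and Kif16b, which positions early endosomes, had a ratio of 0.735.

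The kinesin-2 genes, motors of cilia and dendrites, had no member called, and their ratios were 1.42 for Kif3a, 1.09 for Kif3b, 0.869 for Kif3c and 0.879 for Kif17. Kif3c, the most abundant of them by reads, had 129.53 and 129.98 CPM in the sleep-deprived files, against 149 and 149 CPM in the control files. Of the kinesin-4 genes, Kif21a, which restrains microtubule growth, had 247 and 246 CPM in the sleep-deprived files, against 201 and 202 CPM in the control files (ratio 1.22, 1.17 to 1.28). Its relative Kif21b had a ratio of 1.09, which turned to 0.684 on protein-coding transcripts alone. Its coding transcript Kif21b-201 had 13.5 and 4.68 CPM in the sleep-deprived files, against 4.66 and 22.4 CPM in the control files. The files of a group thus lay far apart, and the turn rests on an imprecise division of reads. Kif7 and Kif27, which act in cilia, had ratios of 0.898 and 0.591 on 20 to 64 reads. Kif2a, which takes microtubules apart and prunes axon branches, had 103 and 103 CPM in the sleep-deprived files, against 132 and 133 CPM in the control files (ratio 0.779, 0.728 to 0.834). Kif24, another kinesin-13, which acts at centrioles, had a ratio of 0.846. Kif26b, an atypical kinesin, had 103 and 103 CPM in the sleep-deprived files, against 104 and 103 CPM in the control files (ratio 0.997), and Kif26a had a ratio of 1.02. The cilium kinesins Kif6, Kif9 and Kif19a had ratios of 0.665, 1.66 and 0.791, none of them called, and Kif6 turned to 1.77 with the length correction. Exons of Kif3c, Kif2a and Kif7 overlap a gene on the opposite strand over 35.3%, 19.2% and 19.1% of their bases, so part of their reads could belong to that gene.

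Of the 9 measured kinesins of cell division 3 were called higher, beside 4.24% of all measured genes. These 3 had fewer reads in the control library than the minimum count of 10 and passed the filter through the sleep-deprived library in which they were high, so the count supports nothing about the list. Kif2c and Kif18b of the same list, with no read in the sleep-deprived files and at most 7 and 3 in a control file, did not pass. Kif11, which pushes spindle poles apart, had 30 and 30 reads in the sleep-deprived files, against 6 and 6 reads in the control files (ratio 5.32, 2.18 to 15.6). Kif14, which acts in cytokinesis, had 22 and 21 reads in the sleep-deprived files, against 3 and 4 reads in the control files (ratio 5.85, 1.99 to 23.4). Kif4, which organises chromosomes and the central spindle, had 14 and 13 reads in the sleep-deprived files, against 5 and 5 reads in the control files (ratio 2.98, 1.01 to 10.6). On GRCm38 these genes lie at chr19:37376403-37421859 (Kif11), chr1:136466343-136531511 (Kif14) and chrX:100625737-100727214 (Kif4), and in the annotation their reads fell on coding transcripts. The sleep-deprived files were the higher ones for each of the 3 genes, but the 2 files of a group count as 1 sample and these are small numbers of reads. The Kif4 call was lost with library totals as the scaling (ratio 2.88), without the first sleep-deprived file (ratio 2.77), and where at least 20 reads were asked of 1 of the libraries. Of the bases in Kif4 exons 15.1% are shared with Pdzd11 on the opposite strand, and of the 31-base stretches of Kif11 6.35% occur in another gene.

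The other 6 measured mitotic kinesins were not called. Kif23, a motor of the central spindle, had a ratio of 1.84 (1.06 to 3.26), and Kif22, a chromosome-binding kinesin, had 449 and 455 reads in the sleep-deprived files, against 314 and 320 reads in the control files (ratio 1.52, 1.31 to 1.76). Most Kif22 reads, 88.5% in the sleep-deprived and 90.0% in the control library, lay on a transcript with a retained intron. Kif18a, Kif20b, Kif20a and Kif15, which act in chromosome alignment, cytokinesis and spindle assembly, had ratios of 1.001, 0.939, 0.851 and 0.629, and 29.3% of the exon bases of Kif20a overlap Cdc23 on the opposite strand. Kif15 and Kif20b were called lower in the sleep-deprived library on protein-coding transcripts alone (ratios 0.13 and 0.3) and with the length correction (0.396 and 0.468), against the direction of the 3 called genes, and Kif23 came to 2.10 on protein-coding transcripts, where it was called higher, and to 1.01 with the length correction. The list as a whole summed to 50.1 CPM in the sleep-deprived and 36.6 CPM in the control library, most of it Kif22, with a median log2 ratio of 0.60. Microglial markers were higher in the same library, at a summed ratio of 3.34, and markers of other leukocytes summed to 81.0 CPM in the sleep-deprived and 46.3 CPM in the control library with 4 of 6 called higher. Their part in the mitotic kinesin values was not tested.

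Promoters of the 3 called mitotic kinesins are shown because genes of cell division often carry a CHR (cell cycle genes homology region), bound by a complex that times them to mitosis, near a CCAAT box, bound by NF-Y. Each sequence runs from 250 bases before to 50 bases after the start of the RefSeq transcript on the plus strand of GRCm38.p6. Capitals mark CHR letters (TTTGAA or TTCGAA) and CCAAT letters on either strand, so that TTCAAA and ATTGG are matches on the other strand.
Kif11 promoter, chr19:37376132-37376431: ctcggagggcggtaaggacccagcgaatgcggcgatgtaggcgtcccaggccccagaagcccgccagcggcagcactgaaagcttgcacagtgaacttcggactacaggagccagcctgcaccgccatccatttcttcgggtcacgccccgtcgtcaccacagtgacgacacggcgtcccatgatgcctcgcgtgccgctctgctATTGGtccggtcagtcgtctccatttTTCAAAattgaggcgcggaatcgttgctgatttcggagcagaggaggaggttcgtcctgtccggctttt
Kif14 promoter, chr1:136467598-136467897: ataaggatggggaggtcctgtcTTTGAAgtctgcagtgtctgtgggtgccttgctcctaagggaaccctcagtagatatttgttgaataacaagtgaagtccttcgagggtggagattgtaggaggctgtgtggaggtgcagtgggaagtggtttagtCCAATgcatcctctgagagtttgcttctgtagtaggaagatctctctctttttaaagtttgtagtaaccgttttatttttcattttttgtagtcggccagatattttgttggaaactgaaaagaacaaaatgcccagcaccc
Kif4 promoter, chrX:100625815-100626114: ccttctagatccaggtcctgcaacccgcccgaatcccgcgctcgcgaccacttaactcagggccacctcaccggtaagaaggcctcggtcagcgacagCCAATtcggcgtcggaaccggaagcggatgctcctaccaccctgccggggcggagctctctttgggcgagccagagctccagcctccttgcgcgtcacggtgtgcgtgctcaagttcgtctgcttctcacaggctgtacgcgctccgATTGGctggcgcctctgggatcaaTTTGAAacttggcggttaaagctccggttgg
In Kif11 the CHR letters lie 19 bases before the start and the CCAAT letters 45 bases before it, whereas the matches in Kif14 lie 228 and 92 bases before the start and the CHR letters of Kif4 lie after it. The Kif14 window lies inside the span given for the gene above, which begins with a retained-intron transcript at 136466343, and ends before the GENCODE starts of the protein-coding transcripts, the first of which is at 136467935. The whole Kif4 window, with its CHR and CCAAT letters, lies after the GENCODE start of the protein-coding transcript Kif4-201 at 100625737. Among the 10 mitotic kinesin genes with a promoter in the table, 9 held CHR letters and 6 held both motifs, against 19.2% and 7.51% of all 32817 promoters of the same length. Genes of the same list that were not called held them too, so the letters did not separate called from uncalled genes. A match in letters is a description and shows no binding.

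The dyneins had 4 of 7 genes above a ratio of 1 and none called. Dync1h1, the heavy chain that does the walking, had 1249 and 1249 CPM in the sleep-deprived files, against 821 and 819.8 CPM in the control files (ratio 1.52, 1.49 to 1.56). The intermediate chain Dync1i2, which binds dynactin, had 287 and 284 CPM in the sleep-deprived files, against 249.5 and 249.7 CPM in the control files (ratio 1.14, 1.09 to 1.20). The neuronal intermediate chain Dync1i1 had 39.8 and 40.0 CPM in the sleep-deprived files, against 51.2 and 51.3 CPM in the control files (ratio 0.779, 0.697 to 0.869). The subunits of this one complex thus did not move by a common factor. The light intermediate chains, which hold cargo adaptors, were closer to 1. Dync1li2 had 307 and 308 CPM in the sleep-deprived files, against 275 and 275 CPM in the control files (ratio 1.12, 1.07 to 1.17). Dync1li1 had 63.9 and 64.0 CPM in the sleep-deprived files, against 66.0 and 64.1 CPM in the control files (ratio 0.984, 0.898 to 1.08).

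Dynein-2, the return motor of the cilium, showed a like contrast between its heavy and light intermediate chains. Dync2h1 had 83.2 and 83.1 CPM in the sleep-deprived files, against 50.1 and 50.1 CPM in the control files (ratio 1.66, 1.51 to 1.82). Dync2li1 had 52 and 49 reads in the sleep-deprived files, against 56 and 55 reads in the control files (ratio 0.95, 0.636 to 1.42), which turned to 1.19 with the length correction. The dynein heavy chains are among the longest transcripts of the set. Of the 69 motor genes 19 had a mean transcript length over 6000 bases, against 1080 of all measured genes, and in that band the median log2 ratio was 0.13 for the motor genes and -0.06 for all genes.

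The partners of dynein and kinesin stayed within 2-fold. None of the 9 dynactin genes, the 9 dynein regulators and adaptors, the 8 measured dynein light chains or the 13 measured kinesin light chains and adaptors was called, with median log2 ratios of 0.13, 0.18, 0.01 and 0.12. The adaptors Rhot2 and Mapk8ip3 had the highest ratios of the kinesin partners, 1.59 and 1.49, and Kifap3, the accessory subunit of kinesin-2, the lowest at 0.738. Of 4 kinesins with a C-terminal motor, Kifc5b was higher (ratio 2.11) on 254 reads in the sleep-deprived and 128 in the control library, a call lost on protein-coding transcripts alone (ratio 1.65). Of 15 axonemal dynein heavy chains, the motors of beating cilia, Dnah1, Dnah3 and Dnah7a were lower (ratios 0.258, 0.448 and 0.25). This is a share of 20% beside 5.65% of all measured genes called lower. None was higher, and the median log2 ratio was -0.59. The 15 genes summed to 265.65 CPM in the sleep-deprived and 256 CPM in the control library (ratio 1.04, 0.991 to 1.08), but the sleep-deprived files stood on either side of the control files, at 294 and 237 CPM against 258 and 255 CPM. Of 5 measured markers of ependyma and choroid plexus, Ccdc153 and Enkur were lower (ratios 0.226 and 0.426), a share of 40% beside the same 5.65%. Foxj1, Kl and Ttr had ratios of 0.709, 0.933 and 1.03 and were not called. These markers summed to 321 CPM in the sleep-deprived and 318 CPM in the control library. The part of these cells in the axonemal values was not tested.

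The myosins held both genes called lower. Myh11, the heavy chain of smooth muscle (chr16:14194535-14291372 on GRCm38), had 41.2 and 40.9 CPM in the sleep-deprived files, against 84.7 and 84.4 CPM in the control files (ratio 0.486, 0.44 to 0.537). It was the called motor gene with most reads, 582 in the sleep-deprived and 1274 in the control library. Both sleep-deprived files were below both control files, but the 2 files of a group count as 1 sample. Of the 41 motor genes with at least 200 reads in each library, 40 had files that did not overlap between the groups. In these genes the 2 files of a group differed by at most 2.07% (sleep-deprived) and 2.87% (control). The same count was not made over all genes, so it shows nothing particular to Myh11 or to the motor genes. Markers of mural cells, the contractile cells of vessels, summed to 62.7 CPM in the sleep-deprived and 72.6 CPM in the control library. Of the 6 measured, Higd1b was higher and Kcnj8 lower, while the contractile genes Acta2 and Tagln had ratios of 0.857 and 0.814 and were not called. The part of mural cells in the Myh11 value was not tested.

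The non-muscle myosin-2 heavy chains, which contract the actin cortex, moved unequally. Myh9, the form typical of migrating and blood-derived cells, had 737 and 736 CPM in the sleep-deprived files, against 463 and 462 CPM in the control files (ratio 1.59, 1.54 to 1.64). Myh10, the main form of neurons, had 2138 and 2139 CPM in the sleep-deprived files, against 2551 and 2549.6 CPM in the control files (ratio 0.839, 0.826 to 0.851), but its ratio was 1.11 when only protein-coding transcripts were counted. Myh14 had 306 and 307 CPM in the sleep-deprived files, against 418 and 418 CPM in the control files (ratio 0.732, 0.704 to 0.761). Of 9 measured light chain genes 3 were called, a share of 33.3% beside 9.90% of all measured genes. Among them Myl1 was lower (ratio 0.491), Myl2 was higher on 22 reads against 2, and one of the 2 gene identifiers that share the symbol Myl12b was higher, on 125 reads in the sleep-deprived and 2 in the control library, while the other had a ratio of 0.681. Both genes called higher had fewer control reads than the minimum count of 10 and passed the filter through the library in which they were high. The share of called light chain genes therefore supports nothing about the list. None of the 7 measured kinase and phosphatase genes was called. Rock2, a kinase that activates non-muscle myosin, had a ratio of 1.62.

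The muscle myosins were rare, apart from Myh7b, a slow form also made in brain, which had 54.8 and 54.1 CPM in the sleep-deprived files, against 67.3 and 67.4 CPM in the control files (ratio 0.809, 0.736 to 0.889). Myh3, the embryonic form (chr11:67078300-67102291), was higher, with 23 and 23 reads in the sleep-deprived files and 7 and 7 reads, under the minimum count of 10, in the control files (ratio 3.50, 1.45 to 9.65). Of the 31-base stretches of Myh3, 11.1% also occur in other genes, most often Myh13. The cardiac forms Myh6 and Myh7, which share 29.2% and 22.9% of their stretches with other genes, chiefly each other, had ratios of 1.85 and 1.26. With the length correction they were called higher at 2.78 and 2.19, whereas Myh7 turned to 0.895 on protein-coding transcripts alone. Myh15 had 5 reads in the sleep-deprived and 13 in the control library.

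Among the class 5 myosins, which carry vesicles along actin, the sum was 1139.8 CPM in the sleep-deprived and 1868 CPM in the control library (ratio 0.61, 0.598 to 0.622). Myo5a, which brings membrane into the spines of neurons, had 1109.5 and 1109.4 CPM in the sleep-deprived files, against 1843 and 1846 CPM in the control files (ratio 0.601, 0.59 to 0.613). This was the widest CPM difference of any measured motor gene, but it did not reach 2-fold. Myo5b, which moves recycling endosomes, had 48 and 47 reads in the sleep-deprived files, against 135 and 128 reads in the control files (ratio 0.39, 0.274 to 0.546), and was called lower. Most Myo5b reads, 55.3% in the sleep-deprived and 73.2% in the control library, lay on a transcript with a retained intron, and on protein-coding transcripts alone its ratio was 0.668 and the call was lost. Myo5c, best known from secretory epithelia, had a ratio of 1.85, and on protein-coding transcripts alone it was called higher at 4.33. Its coding reads were only 15.7 in the sleep-deprived and 3.68 in the control library. On these transcripts Myo5c thus passed the minimum count only through the library in which it was high, so this call carries no weight.

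The class 1 myosins, which link membranes to actin, had 7 genes measured, none called and a median log2 ratio of 0.20. Myo1c had 74.8 and 74.9 CPM in the sleep-deprived files, against 48.0 and 47.7 CPM in the control files (ratio 1.56, 1.42 to 1.72). Myo1a, Myo1d and Myo1e had ratios of 1.67, 1.07 and 0.797. The forms best known from blood cells, Myo1f and Myo1g, had 26 and 20 reads in the sleep-deprived library, against 24 and 10 in the control library. Neither was called (ratios 1.15 and 2.13, both intervals including 1), but on protein-coding transcripts alone both were called higher, at ratios of 9.37 and 4.87. Their coding reads were 26 and 17.7 in the sleep-deprived library, against 0 and 3.93 in the control library. Both thus passed the minimum count of 10 only through the library in which they were high. The Myo1f ratio is set by the floor of 3 reads, so these calls carry no weight. Microglial markers stood at a ratio of 3.34, and their part in these values was not tested.

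The other unconventional myosins had 8 of 10 genes above a ratio of 1 and none called. Myo6, which walks toward the minus ends of actin and takes part in receptor uptake, had 367 and 368 CPM in the sleep-deprived files, against 583 and 584 CPM in the control files (ratio 0.63, 0.609 to 0.652). Myo18a, a myosin of the Golgi, had 246 and 246 CPM in the sleep-deprived files, against 243 and 243 CPM in the control files (ratio 1.01), and its ratio was 0.686 with the length correction. The signalling myosins Myo9b and Myo9a had ratios of 1.31 and 1.12. The ratios of Myo7a and Myo15, known from hair cells, were 1.31 and 1.27, and Myo7a was called higher at 2.33 on protein-coding transcripts alone. Those of Myo10 (filopodia), Myo16 (neurons) and Myo19 (mitochondria) were 1.15, 1.10 and 1.17, and Myo18b, a muscle form, had 13 reads in the sleep-deprived and 22 in the control library.

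**Figure D3:**
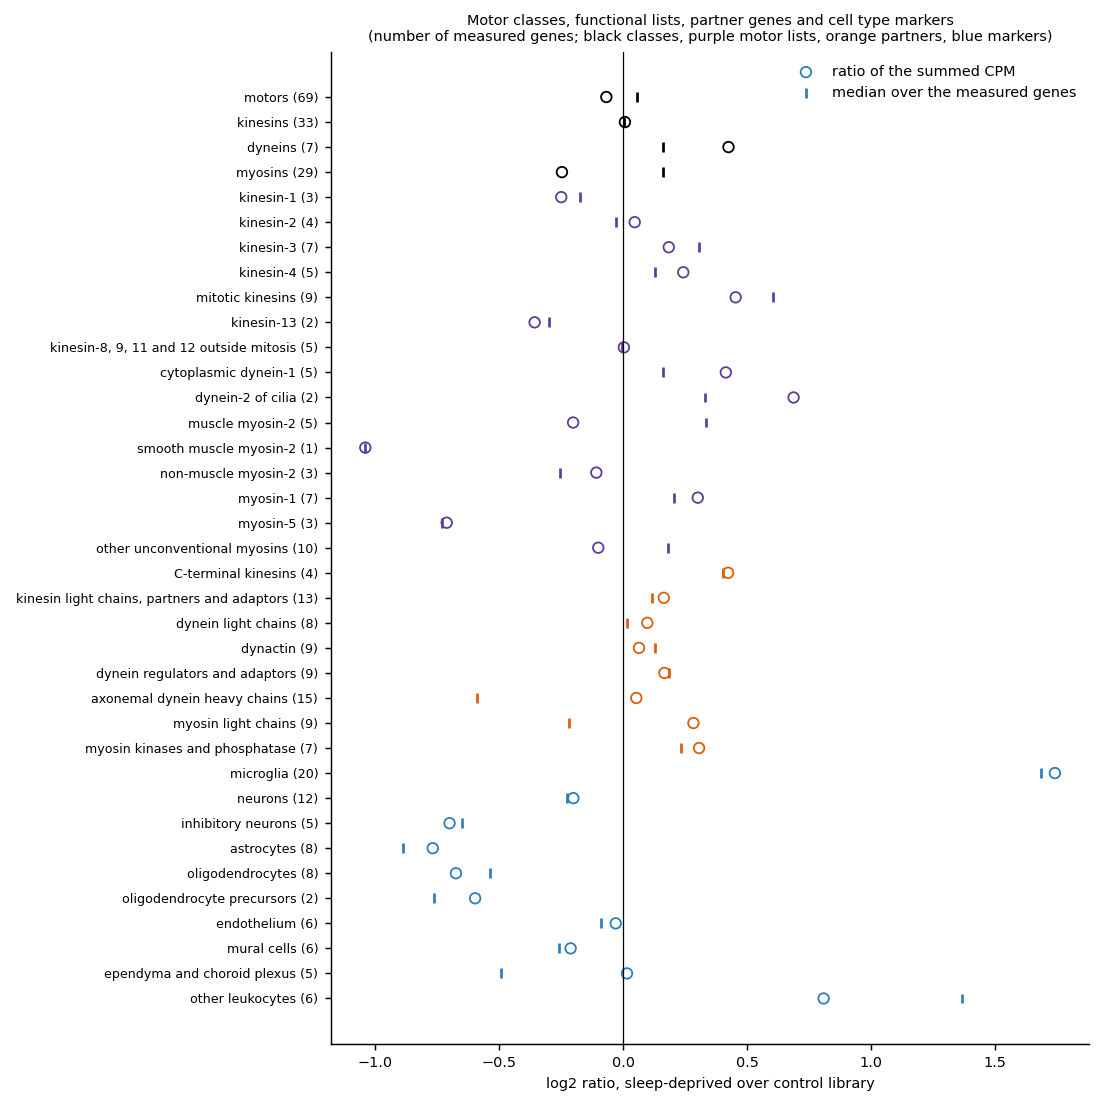
Log2 ratio, sleep-deprived over control library, of the summed CPM (circles) and of the median gene (ticks) for the motor classes, functional lists, partner genes and cell type markers. Myosin-5 and smooth muscle myosin lie furthest left among the motor lists, with sums at ratios of 0.61 and 0.486, and the microglial markers furthest right at 3.34.

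Reads of a gene were divided between its transcripts by the authors' quantification, and the division differed between libraries for some motor genes. Of 41 motor genes with at least 200 reads in each library, 5 had a transcript whose share of the reads differed by at least 20 percentage points, 9 transcripts in all (Dync1i2, Kif16b, Myo6, Myo9a and Myo16). The same count was not made over all genes, so it cannot be said whether 5 of 41 is many or few. In Myo6 one coding transcript (Myo6-201) held 26.3% and 22.6% of the reads in the sleep-deprived files, against 52.0 and 56.3% in the control files, and another (Myo6-203) held 59.99% in the sleep-deprived and 38.5% in the control library. In Dync1i2 the transcript Dync1i2-206 held 29.0 and 25.8% of the reads in the sleep-deprived files and none in the control files. In Kif16b the transcript Kif16b-205 held 89.0 and 86.7% in the sleep-deprived files, against 44.1 and 23.8% in the control files. The 2 control files lay far apart here although they count as 1 library, so this division of reads was itself imprecise. In Myo16 the transcript Myo16-201 held 0 and 28.7% in the sleep-deprived files, a spread of the same kind.

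Myh10 and Myh14 showed their shifts in other ways. In Myh10 the short transcript annotated as non-coding (Myh10-206, 1811 bases) held 29.0% of the reads in the sleep-deprived and 44.8% in the control library, and the long coding Myh10-201 held 24.2% in the sleep-deprived and 7.47% in the control library, a CPM ratio of 2.72. The other coding transcript, Myh10-203, held 46.5 and 47.0%. In Myh14 a short non-coding transcript (Myh14-205) held 27.2% in the sleep-deprived and 39.8% in the control library, and Myh14-201 held 11.7 and 14.3% in the sleep-deprived files, against 3.11 and 1.77% in the control files, a CPM ratio of 3.90.

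**Figure D4:**
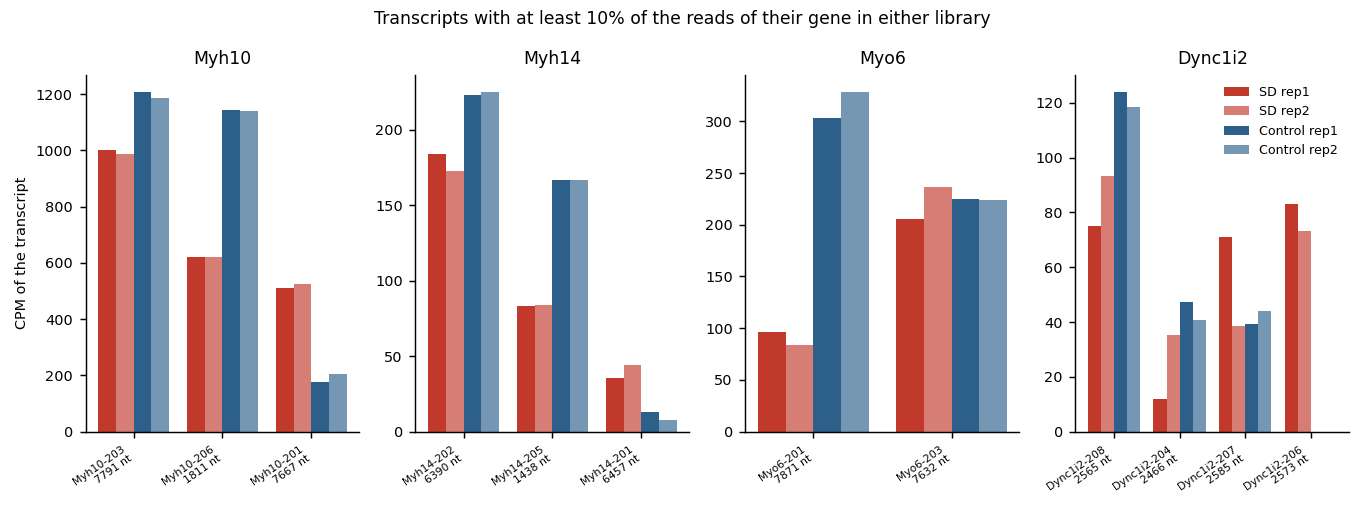
CPM per file of the transcripts that hold at least 10% of the reads of their gene, for Myh10, Myh14, Myo6 and Dync1i2 (sleep-deprived files red, left; control files blue, right; n = 1 library per group). Myh10-201 is higher and Myh10-206 lower in the sleep-deprived files.

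The transcripts that differ in Myh10 and Myh14 carry inserts in the motor head that are well known from neurons. In non-muscle myosin 2B the insert B1 lies in a loop near the ATP pocket and B2 in a loop that touches actin, and myosin 2C has an insert at the place of B1. These exons, and those of Myo6 and Kif16b, are carried by some of the transcripts above and skipped by others. They are printed in capitals, with 15 bases of the neighbouring exons in small letters, in the direction of the gene on GRCm38. The transcripts differ in other sequence too. Myh10-201, which carries B1 and B2, has 7667 bases, and Myh10-203, which skips them, has 7791. Myo6-201 has 7871 bases and Myo6-203 has 7632. The shares below therefore compare whole transcripts and do not measure the inserts alone.
Myh10 B1, 30 bases, chr11:68745935-68745964, plus strand: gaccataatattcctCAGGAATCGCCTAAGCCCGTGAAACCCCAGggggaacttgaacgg
Myh10 B2, 63 bases, chr11:68775365-68775427, plus strand: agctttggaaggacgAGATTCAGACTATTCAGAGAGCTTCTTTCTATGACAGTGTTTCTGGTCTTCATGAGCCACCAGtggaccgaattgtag
Myh14 head insert, 24 bases, chr7:44657417-44657440, minus strand: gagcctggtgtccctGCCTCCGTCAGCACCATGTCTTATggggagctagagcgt
Myo6 tail insert, 27 bases, chr9:80303273-80303299, plus strand: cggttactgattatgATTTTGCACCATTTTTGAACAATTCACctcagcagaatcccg
Kif16b insert, 33 bases, chr2:142715062-142715094, minus strand: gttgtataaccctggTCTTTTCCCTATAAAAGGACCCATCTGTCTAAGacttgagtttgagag
All 5 are multiples of a codon in length and add 10, 21, 8, 9 and 11 residues. Exons of Myo9a and Myo16 that also differed by at least 20 points are not printed, and a Myo16 exon of 118 bases is not such a multiple. Transcripts that carry B1 and B2 made up 34.2 and 35.1% of the coding Myh10 TPM that spans the exons in the sleep-deprived files, against 13.01 and 14.8% in the control files. Both exons sit on the same listed transcript, so their shares are one measurement and not 2. The Myh14 insert was carried by 15.9 and 19.5% in the sleep-deprived files, against 5.1 and 2.9% in the control files, and the Myo6 insert by 35.9 and 31.6%, against 52.6 and 56.3%. The Kif16b insert was carried by all spanning coding TPM in the sleep-deprived files, against 56.7 and 30.6% in the control files.

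**Figure D5:**
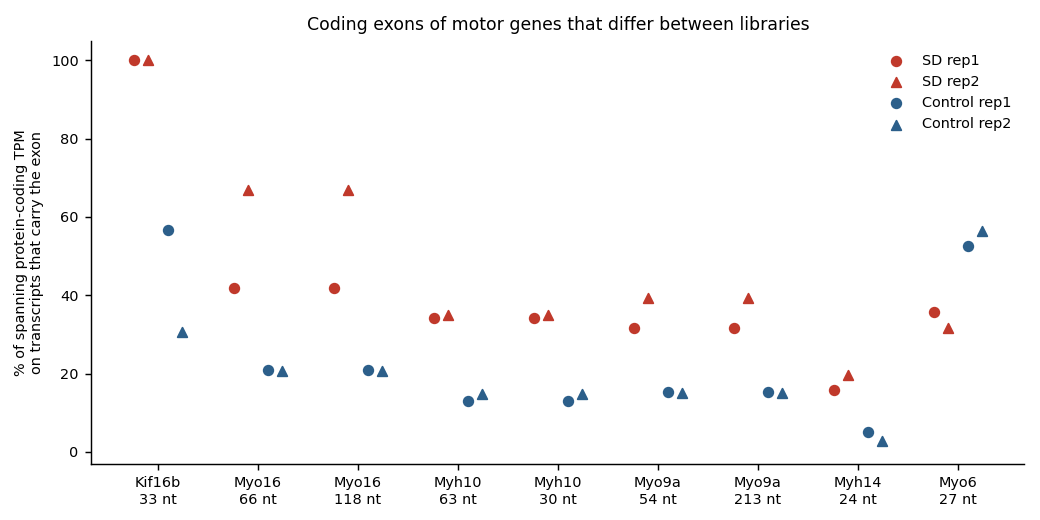
Share of the protein-coding TPM spanning an exon that lies on transcripts carrying it, in each sleep-deprived (red, left) and control (blue, right) file. The Myh10 exons sit at 34.2 to 35.1% against 13.01 to 14.8%, while the files of a group lie apart for Kif16b and Myo16.

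Such differences in exon shares were as common in other genes. Of 85 exons in 26 motor genes that some coding transcripts carry and others skip, 8 differed by at least 20 points (9.41%), beside 671 of 6698 exons over all genes (10.02%). Of the 8, 7 were carried more and 1 less in the sleep-deprived library, beside 425 more and 246 less over all genes. Pairs of the 8 lie in the same gene (Myh10, Myo9a and Myo16), so they are not all separate measurements. The Myh14 exon lay under that threshold and is shown as the counterpart of the Myh10 exon, chosen after its values were seen, and a Dync2h1 exon of 21 bases fell just below it at 31.2% in the sleep-deprived and 11.3% in the control library.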

How the data were processed

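RNA bound to tagged ribosomes was measured in 4 files from mouse hippocampus, 2 sleep-deprived and 2 control, grouped by their titles because the treatment field names sleep deprivation for every sample. Per the file headers, the authors deposited estimated counts and TPM for 116546 transcripts. Salmon, DESeq2 and the build mm10 are named per the submitters' processing notes, whereas no Salmon version, annotation or use of strand is given in the sources used here. Identifiers of the transcripts were looked up in GENCODE mouse release 21 (99.5%), which left out 0.241 to 0.271% of the reads of a file, and estimated counts were summed per gene.

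In a chi-square of counts (genes of 20 reads or more), the statistic per degree of freedom came to 0.231 for the sleep-deprived pair of files and 0.335 for the control pair, against 69.1 to 69.3 between groups. The mean of the 2 files, rounded to whole counts, was therefore used as 1 library, and the planned edgeR quasi-likelihood and DESeq2 tests were not run. Genes passing edgeR's filterByExpr (minimum count 10) were measured and scaled by TMM (edgeR 4.0.16, R 4.3.3). Intervals of ratios are exact conditional (Clopper-Pearson), a library under 3 reads was set to 3 for a fold, and the script was tested on simulated data. Deposited TPM set the levels between genes and the exon shares.

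Values per file are given for every called gene, for the most abundant genes of each class (all dyneins) and for the most abundant gene of each functional list; other members are given by ratio to complete their list, except 1 that is not reported here and enters only counts, sums and medians. Members and lists were chosen with earlier results of these data known. The analysis of coding exons, the sums without 1 gene and the read minimum of 20 were chosen after the data were seen. Alternatives were other scalings, filters, thresholds, a transcript length offset and protein-coding transcripts alone.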

Additional observations from a re-analysis of the deposited data

How the results depend on the processing

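Of 360 values for 28 named genes under the alternatives tried, 348 kept their side of the threshold. The others were 1 that reversed, 6 that lost the call and 5 that gained one. A turn past 1 counted as reversed only where the main interval excluded 1 or the turned value was called. The reversed value was Myh10, at 1.11 on protein-coding transcripts alone. Uncalled genes whose intervals included 1 also turned with the length offset, among them Myo18a (1.01 to 0.686) and Dync2li1 (0.95 to 1.19). Kif1a and Kif26b turned from just below 1 to just above it with the length offset and on protein-coding transcripts. Outside these 28, Kif21b and Myh7 also turned on protein-coding transcripts and Kif6 with the length offset, to the values given beside their ratios. Leaving out 1 file at a time gave 3 to 4 genes called higher and 2 called lower, and sums at ratios of 1.004 to 1.005 for kinesins, 1.339 to 1.343 for dyneins and 0.841 to 0.843 for myosins. Because the 2 files of a group nearly coincide, leaving 1 out could change little, and these values are among the 360. With a mean of at least 50 reads no gene was called higher, a count of 0. On protein-coding transcripts alone 9 genes were called higher (background 6.67%), among them Myo1f, Myo1g, Myo5c and Myo7a, and the myosin ratio was 0.923. With the transcript length offset 4 genes were called lower (background 6.74%), the added ones being Kif15 and Kif20b, which were also lower on protein-coding transcripts, and the class ratios were 1.03 for kinesins, 1.52 for dyneins and 0.783 for myosins. A 1.5-fold threshold gave 15 higher and 5 lower (background 12.5% and 13.6%), and a 3-fold threshold 0 lower (background 2.43%). Upper-quartile scaling gave ratios of 0.992 for kinesins and 0.832 for myosins, and library totals gave 0.97, 1.30 and 0.813 for kinesins, dyneins and myosins. Chosen after the data were seen, a minimum of 20 reads in either library gave 3 higher, without Kif4, and 2 lower (background 3.96% and 5.10%), and the ratio was 0.929 for myosins without Myo5a, 1.13 for dyneins without Dync1h1 and 1.07 for kinesins without Kif5a. The cause of these shifts was not tested. No paired analysis was possible because the 2 files of a group were counted as 1 sample, which leaves no replicate to block on.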

Other observations

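For several motor genes most reads lay on transcripts that are not annotated as coding. Kif21b, which regulates microtubule growth, had 87.7% of its reads in the sleep-deprived and 80.0% in the control library on a transcript subject to nonsense-mediated decay. The share was 82.1 and 93.3% in the sleep-deprived files and 92.6 and 67.4% in the control files, so the difference between libraries is imprecise. Myo7a, a myosin of hair cells, had 58.8% of its reads in the sleep-deprived and 77.6% in the control library on a transcript subject to nonsense-mediated decay. Myo5c had 74.0% in the sleep-deprived and 76.9% in the control library on a transcript with a retained intron. Myo1f, a myosin of blood cells, had all of its 26 reads on its coding transcript in the sleep-deprived library, whereas all of its 24.5 reads in the control library lay on a transcript with a retained intron. Over all motor genes, transcripts with a retained intron took 1.72% of the reads in the sleep-deprived and 1.26% in the control library, against 13.3% and 10.6% over all genes.

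Among the motor genes under the read filter, Myo3b, a myosin of sensory cells, had no read in either sleep-deprived file and 7 in each control file. Kif2c, a mitotic microtubule depolymerase, had none in the sleep-deprived files and 6 and 7 in the control files, opposite in direction to the called mitotic kinesins. The axonemal dynein Dnah7b had 62.9 and 8.51 CPM in the sleep-deprived files, against 40.2 and 35.6 CPM in the control files, a spread between 2 files counted as 1 sample that is wider than the gap between the group means.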
